A study of Mus musculus with 33 samples.

Results

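Eif2ak1, Eif2ak2, Eif2ak3, Eif2ak4, Ppp1r15a, Ppp1r15b and Impact set how much of the translation factor eIF2 is phosphorylated on its alpha subunit: 4 kinases, 2 phosphatase subunits and 1 inhibitor of a kinase. They were chosen by name for these roles, not by their values, and make up 7 of the 54752 genes in the RNA files. All 7 were also among the 22523 genes of the footprint files, and all 7 passed the filter on low counts in every fit. The 33 libraries are of brain tissue taken at 8 weeks of age, and the variable is n-Tr20, a gene for an arginine tRNA that neurons use. There were 5 forebrain groups with 4 mice each. C57BL/6NJ mice with wild-type n-Tr20 are called B6N, and the same strain with n-Tr20 -/- is called B6N knockout. C57BL/6J mice, called B6J, are labelled as hypomorphic mutants for n-Tr20. B6J transgenic mice have Tg(n-Tr20), a transgene with the B6N gene, on top of that mutation. B6J knockout mice are C57BL/6J with n-Tr20 -/-. Which promoter drives the transgene, and in which cells, is not stated in the labels. The hippocampus of B6N and B6N knockout gave 3 RNA and 3 ribosome footprint libraries per genotype. All alleles are germline, so every cell of an animal carries its genotype.

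The kinases each answer to another form of stress and phosphorylate the same site. Phosphorylated eIF2 holds back its exchange factor eIF2B, most initiation slows, and a few messages with upstream reading frames, Atf4 above all, are translated more. Eif2ak1 encodes HRI, which senses heme shortage and signals from mitochondria. Eif2ak2 encodes PKR, an interferon-induced sensor of double-stranded RNA. Eif2ak3 encodes PERK, the sensor in the endoplasmic reticulum membrane. Eif2ak4 encodes GCN2, which senses uncharged tRNAs and stalled ribosomes together with its partner GCN1. Impact encodes a protein abundant in neurons that competes with GCN2 for GCN1 and so holds GCN2 down. Ppp1r15a encodes GADD34, the stress-induced subunit that brings protein phosphatase 1 to eIF2, and Ppp1r15b encodes CReP, its constitutive counterpart. The RNA levels given here say nothing of the phosphorylation of the proteins, which was not measured.

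Promoters are shown for the interferon-induced kinase, for the stress-induced phosphatase subunit and, for contrast, for Asns, a target of ATF4. The sequences are RefSeq's for GRCm38.p6, each running from 250 bases before the annotated start of transcription through the first 30 transcribed bases, 5′ to 3′ on the minus strand. Capitals mark matches on either strand to TGATGNAA (the core of an ATF4 site), TGACGTCA (a cyclic AMP response element) and the core of an interferon response element (GAAA, any 2 bases, GAAA).
Ppp1r15a, chr7:45526239-45526518: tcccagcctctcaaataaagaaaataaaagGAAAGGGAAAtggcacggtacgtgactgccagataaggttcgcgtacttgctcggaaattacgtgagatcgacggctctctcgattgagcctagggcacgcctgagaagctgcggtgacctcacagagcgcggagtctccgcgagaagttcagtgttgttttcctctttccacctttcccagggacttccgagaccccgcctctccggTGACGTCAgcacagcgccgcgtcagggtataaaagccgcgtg
Eif2ak2, chr17:78882543-78882822: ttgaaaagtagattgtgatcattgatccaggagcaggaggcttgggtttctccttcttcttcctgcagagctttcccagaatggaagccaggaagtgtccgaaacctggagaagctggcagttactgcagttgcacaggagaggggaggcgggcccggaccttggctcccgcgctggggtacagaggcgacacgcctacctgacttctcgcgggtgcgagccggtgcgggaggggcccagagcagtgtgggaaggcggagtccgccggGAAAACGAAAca
Asns, chr6:7693180-7693459: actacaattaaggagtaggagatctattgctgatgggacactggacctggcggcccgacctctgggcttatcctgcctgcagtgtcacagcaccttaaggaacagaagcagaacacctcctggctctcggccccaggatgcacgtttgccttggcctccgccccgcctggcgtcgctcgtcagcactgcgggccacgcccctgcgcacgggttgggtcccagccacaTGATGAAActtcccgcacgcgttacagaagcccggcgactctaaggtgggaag

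Motifs were searched in windows of 300 bases, from 250 before the start through the first 50 transcribed bases. Such windows were searched for 5 of the 7 genes, Ppp1r15b and Impact not among them. For the listed genes, windows on chromosome 18, where Impact lies, were left out. TGATGNAA was in none of the 6 windows of these 5 genes, in 6 of the 15 genes of the ATF4 branch with a window, and in 3.97% of all 32851 windows. TGACGTCA was in 1.79% of all windows and, of the 5 genes, in Ppp1r15a. The interferon element core was in 3.44% of all windows and, of the 5 genes, in Eif2ak2 and Ppp1r15a. A match is a run of letters and not shown to be a binding site. In GRCm38, Eif2ak1 lies at chr5:143817792-143902717, Eif2ak2 at chr17:78850504-78882572, Eif2ak3 at chr6:70844484-70905241 and Eif2ak4 at chr2:118388583-118475234. Ppp1r15a lies at chr7:45522917-45526268, Ppp1r15b at chr1:133131166-133139800 and Impact at chr18:12954690-12992950.

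Totals were 14698988 to 38489457 estimated counts per forebrain library, 35825476 to 60426608 counts per hippocampus RNA library and 7616107 to 17896587 counts per footprint library. All 6 neuronal markers were detected in every group. B6J knockouts were sequenced in batch 2 and all other groups in batch 1, with transgenic mouse 4 sequenced in both batches. The batch difference rests on that mouse alone. B6J knockouts 1 to 3 were female by Xist (335 to 370 CPM, counts scaled to a library of 1000000) and all other forebrain libraries male. The hippocampus RNA library of knockout 1 was female as well (Xist at 1242 CPM), while the footprint library of the same number held the Y-linked Ddx3y at 45.5 CPM, the lowest of the 6 footprint libraries (67.0 to 107 CPM in the others). Whether hippocampus libraries of 1 number come from 1 mouse is not stated in the labels. Headers of the hippocampus RNA files name B6JN mice, where the labels give C57BL/6NJ. Markers of choroid plexus, a tissue dissected along with brain to a varying degree, summed to 391 to 554 CPM in B6J knockouts and 14.8 to 65.7 CPM in batch 1 transgenic libraries, and varied as widely as 10.2 to 475 CPM in B6J, 12.5 to 194 in B6N and 11.5 to 285 in B6N knockouts. In hippocampus RNA they summed to 108 to 2754 CPM in B6N and 81.4 to 4069 CPM in knockouts. In the footprints they summed to 6004 to 13197 CPM in B6N and 7981 to 18241 CPM in knockouts. Other forebrain marker sets also differed without overlap. Oligodendrocyte markers were at 1974 to 2505 CPM in B6J knockouts and 2551 to 2936 in batch 1 transgenic libraries. Those of meninges were at 67.0 to 71.7 CPM in B6J knockouts and 47.8 to 64.6 in B6J. Those of cerebellum and hindbrain were at 7.33 to 9.28 CPM in batch 1 transgenic libraries, 5.21 to 6.98 in B6J and 5.74 to 6.16 in B6N. The part of all these tissues and cell types, and that of sex, in the values below was not tested. In bulk tissue, fewer cells of a type and less RNA per cell cannot be told apart.

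Forebrain levels of the 7 genes lay in narrow ranges. Over the 21 libraries the highest CPM of a gene was 1.17 (Ppp1r15b) to 1.504 (Ppp1r15a) times its lowest. Eif2ak1 ran from 39.5 to 47.2 CPM, Eif2ak2 from 20.1 to 26.4, Eif2ak3 from 24.8 to 30.6, Eif2ak4 from 27.4 to 32.9, Ppp1r15a from 7.18 to 10.8, Ppp1r15b from 45.0 to 52.7 and Impact from 217 to 271 CPM. To compare genes, the counts were divided by effective transcript length and put on the TPM scale, which sums to the same total in every library. In B6N forebrain Impact stood at 74.0 TPM ± 4.21 (SD, n = 4), Eif2ak1 at 6.48 ± 0.42 and Ppp1r15a, the lowest, at 2.06 ± 0.35. These 3 genes held ranks 1, 2 and 7 in all 21 libraries. Between them in B6N, Eif2ak3 (5.12 TPM ± 0.74) and Ppp1r15b (5.07 ± 0.19) did not differ beyond their spread, nor did Eif2ak4 (3.92 ± 0.32) and Eif2ak2 (3.84 ± 0.40). Over all 21 libraries, Ppp1r15b was in rank 3 in 15 and Eif2ak2 in rank 6 in 18. In B6J, Ppp1r15b (5.14 TPM ± 0.57) was ranked above Eif2ak3 (4.24 ± 0.46) in all 4 mice, and Eif2ak2 (3.08 ± 0.44) below Eif2ak4 (3.88 ± 0.49). Impact was 3.57 to 4.65 times the sum of the 4 kinases per length in every forebrain library. These levels sum over all transcripts of a gene. The main transcript of Impact by counts held 50.4% of its deposited TPM, so the ratio draws on its other transcripts as well. CReP's gene Ppp1r15b was 2.05 to 3.22 times Ppp1r15a.

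**Figure D1:**
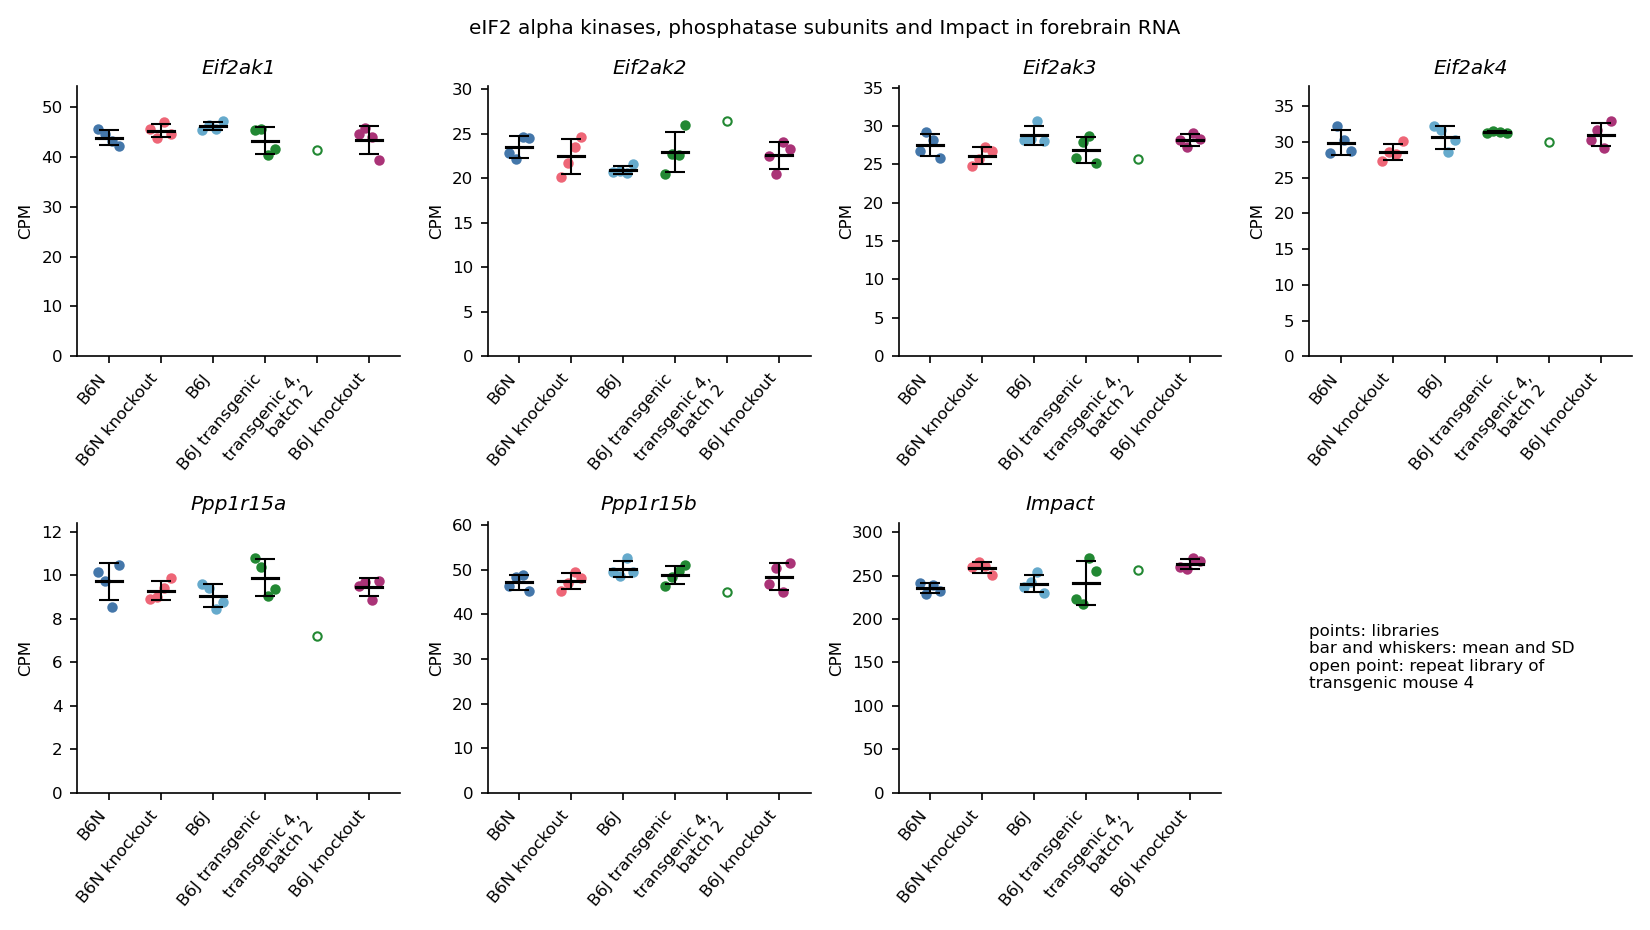
CPM of the 7 genes in forebrain RNA, 1 panel per gene with a linear axis from 0. Points are libraries, bars and whiskers the mean and SD of 4 mice, and the open point is the batch 2 library of transgenic mouse 4. Impact in the 4 B6N knockouts (250.9 to 265.7 CPM) sits above the 4 B6N mice (228.6 to 241.1), and the open point is the lowest of all for Ppp1r15a (7.18 CPM).

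The study contrasts loss, reduction and restoration of n-Tr20, and 10 comparisons follow. None of the 70 tests of these genes passed an adjusted p of 0.05 (quasi-likelihood test of edgeR, adjusted by Benjamini-Hochberg across each whole table). The lowest adjusted p was 0.0525, and 6 of the 70 had an unadjusted p under 0.05. Of all genes, 7.87% to 22.0% had one in the 10 comparisons, so 6 of 70 does not stand out. DESeq2 called 1 of the 70, Impact in footprints. Against these counts of 0 of 7 stand the shares of all genes called. They were 1.91% for B6N knockout against B6N in forebrain, 0.25% for B6J against B6J transgenic (0.0795% lower), 1.73% for B6J against B6N, and 0.366% for B6J transgenic against B6N. They were 0.683% for B6J knockout against B6J transgenic, 0.0943% for B6J knockout against B6J (0.0151% lower), and 0.0596% (0.0199% higher and 0.0398% lower) for the B6N knockout effect minus the B6J effect (B6J minus B6J transgenic). In hippocampus they were 0.0413% for RNA (0.0103% lower), 5.35% for footprints, and 0% (0 of 15202 genes) for translational efficiency, where 2251 genes had an unadjusted p under 0.05 and DESeq2 called 494. With shares this low, 0 of 7 is near the background in all 10. Where groups below are said not to overlap, that is a description. The share of all genes with groups that do not overlap was not counted.

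In B6N knockout forebrain the kinases differed from B6N by little, and the 95% intervals bound the size. Eif2ak4, the kinase that senses uncharged tRNA, read 28.4, 32.2, 30.3 and 28.7 CPM in B6N mice 1 to 4 and 27.4, 28.6, 28.3 and 30.2 CPM in knockouts 1 to 4. The groups overlapped. The log2 fold change of Eif2ak4 was -0.06 ± 0.05 (SE), with a 95% interval of -0.17 to 0.04. For Eif2ak1 it was 0.04 ± 0.05 (-0.05 to 0.14), for Eif2ak2 -0.06 ± 0.07 (-0.20 to 0.07) and for Eif2ak3 -0.07 ± 0.06 (-0.18 to 0.04).

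Between strains, Eif2ak2, the interferon-induced kinase, had the lowest p of the kinases. It read 22.9, 22.1, 24.6 and 24.5 CPM in B6N and 20.7, 20.8, 20.6 and 21.6 CPM in B6J, so that every B6J mouse was below every B6N mouse. The log2 fold change, B6J minus B6N, was -0.17 ± 0.07 (95% interval -0.31 to -0.03), with an edgeR p of 0.0194 and an adjusted p of 0.26. In B6J transgenic mice Eif2ak2 read 20.5, 22.7, 22.6 and 25.9 CPM, overlapping both strains. The comparisons of B6J with B6N and with B6J transgenic share the B6J mice. None of 12 other interferon-induced genes was called between B6J and B6N, where 1.73% of all genes were called. Their median log2 fold change was -0.10 against 0.00 over all genes.

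Eif2ak3, the kinase of the endoplasmic reticulum, was fitted lower in B6N knockout against B6N and higher in B6J against B6J transgenic. This held without correction for transcript length. It read 26.8, 29.2, 28.2 and 25.9 CPM in B6N and 24.8, 25.7, 27.2 and 26.8 in B6N knockouts, then 28.2, 28.3, 30.6 and 28.0 in B6J and 25.8, 27.9, 28.6 and 25.1 in batch 1 transgenic mice. Both pairs of groups overlapped. The B6N knockout effect minus the B6J effect was -0.17 ± 0.08 on the log2 scale (95% interval -0.33 to -0.01), with an edgeR p of 0.0418 and an adjusted p of 0.594. The 4 kinases in B6J against B6J transgenic ran from -0.13 ± 0.07 (Eif2ak2) to 0.10 ± 0.06 (Eif2ak3). Correction for transcript length turned the last to -0.05.

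Neither phosphatase subunit was called in a comparison within batch 1. Ppp1r15a, the stress-induced subunit and itself a known target of ATF4, read 10.1, 9.71, 8.54 and 10.4 CPM in B6N and 8.90, 9.01, 9.40 and 9.84 CPM in B6N knockouts, which overlapped. Its log2 fold change was -0.06 ± 0.08, with a 95% interval of -0.23 to 0.11, and its adjusted p was 0.846 by edgeR. Over the same 8 mice Atf4, the factor that lies downstream, went from 56.9 CPM ± 1.3 to 92.7 ± 3.9 (SD, n = 4 each). Ppp1r15b was level, at 46.4, 48.3, 48.9 and 45.3 CPM in B6N and 45.2, 47.1, 49.4 and 48.1 CPM in knockouts, a log2 fold change of 0.01 ± 0.04 (-0.08 to 0.10).

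The B6J knockouts gave the largest fitted difference of any of the 7 genes in forebrain, and it turned on the bridging mouse. Ppp1r15a read 9.49, 9.67, 8.86 and 9.75 CPM in the 4 B6J knockouts, 9.58, 9.42, 8.43 and 8.77 CPM in B6J, and 10.8, 10.4, 9.02 and 9.36 CPM in the batch 1 transgenic mice. As read, the knockouts lay among the others. Transgenic mouse 4 read 9.36 CPM in batch 1 and 7.18 CPM in batch 2, a log2 difference of -0.38, and the fit takes this as the batch difference. So adjusted, B6J knockout minus B6J was 0.44 ± 0.18 (95% interval 0.07 to 0.81, edgeR p 0.0225, adjusted p 0.519), and B6J knockout minus B6J transgenic 0.32 ± 0.16 (-0.01 to 0.65, adjusted p 0.453). With batch as a plain term, in which mouse 4 counts as 2 samples, the latter was 0.39 with an adjusted p of 0.0449. On the batch 2 libraries alone, 4 knockouts against the 1 library of mouse 4, which was taken to vary like the knockouts, it was 0.38 with an adjusted p of 0.152. With correction for transcript length the values were -0.02 and -0.16. Leaving mouse 4 out of this fit removes the bridge and was not possible. Ppp1r15b behaved alike on a smaller scale. It read 51.1 and 45.0 CPM in the libraries of mouse 4, and 46.8, 50.5, 45.0 and 51.5 CPM in the knockouts, for a fitted difference from transgenic mice of 0.17 ± 0.09 (-0.01 to 0.35, adjusted p 0.49).

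Impact, the inhibitor of GCN2, came nearest to a call. In forebrain it read 241.1, 228.6, 239.0 and 232.8 CPM in B6N and 259.9, 265.7, 261.2 and 250.9 CPM in B6N knockouts, and the groups did not overlap. The log2 fold change was 0.14 ± 0.05 (95% interval 0.03 to 0.25, or 1.10-fold), with an edgeR p of 0.0125 and an adjusted p of 0.216. Fitted on these 8 libraries alone, without the B6J and transgenic mice, the value was 0.14 with an adjusted p of 0.0109. Leaving out single libraries from the fit of 16 gave 0.13 to 0.16, with adjusted p values of 0.174 to 0.413. Those other groups spread more widely: B6J mice read 236.9, 243.0, 253.9 and 229.8 CPM, and transgenic mice 223.3, 217.4, 270.7 and 255.2 CPM. B6J against transgenic Impact was -0.01 ± 0.05 (-0.11 to 0.10). The difference between the B6N knockout effect and the B6J effect was 0.15 ± 0.07, with an edgeR p of 0.0595 and an adjusted p of 0.626. B6J knockouts read 259.7, 257.7, 270.2 and 267.3 CPM, beside 257.0 CPM for transgenic mouse 4 in the same batch. Their fitted difference from transgenic mice was 0.12 ± 0.09 (-0.08 to 0.31).

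In hippocampus the order per length was the same at the top and differed at the bottom. In RNA selected for poly(A), Impact stood at 186.9 TPM ± 7.18 in B6N, Eif2ak1 at 39.4 ± 1.30, Ppp1r15b at 25.6 ± 1.59, Eif2ak4 at 21.5 ± 0.33, Eif2ak3 at 17.9 ± 0.16, Ppp1r15a at 12.9 ± 1.02 and Eif2ak2 at 4.35 ± 0.60 (SD, n = 3). Each gene held its rank in all 6 libraries. Impact was 1.98 to 2.50 times the sum of the kinases. The forebrain libraries were depleted of ribosomal RNA instead, and their levels used effective lengths of transcripts. Hippocampus levels used annotated lengths averaged per gene, with transcripts weighted by their abundance in the forebrain libraries. Tissue, kit and length basis cannot be told apart.

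Hippocampus RNA of the 7 genes differed little between genotypes. Impact read 188.4, 185.8 and 177.3 CPM in B6N and 204.9, 165.8 and 183.0 CPM in knockouts, which overlapped. Its log2 fold change was 0.01 ± 0.08 (95% interval -0.17 to 0.18, adjusted p 0.99 by edgeR). Eif2ak4 read 41.8, 40.6 and 40.7 CPM in B6N and 40.9, 38.2 and 38.7 CPM in knockouts, at -0.06 ± 0.06. Ppp1r15a read 14.5, 12.5 and 12.7 CPM in B6N and 13.9, 14.5 and 13.8 CPM in knockouts, at 0.09 ± 0.09 (-0.12 to 0.29). The other 4 genes ran from -0.03 ± 0.07 (Eif2ak3) to 0.09 ± 0.06 (Eif2ak1). Summed oligodendrocyte markers were at 4683 to 6342 CPM in B6N and 3885 to 4625 CPM in knockouts. Those of microglia were at 230 to 256 and 207 to 226 CPM. The ranges of the other marker sets overlapped, with genes typical of hippocampus at 827 to 934 and 923 to 1248 CPM. The part of cell types in the RNA values was not tested.

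Footprints, the RNA fragments shielded by ribosomes, gave Impact its lowest p. They read 350.5, 405.0 and 351.5 CPM in B6N and 445.6, 440.3 and 449.9 CPM in knockouts, and the groups did not overlap. The log2 fold change was 0.27 ± 0.08 (95% interval 0.11 to 0.43, or 1.21-fold), with an edgeR p of 0.003 and an adjusted p of 0.0525. DESeq2 gave 0.27 with an adjusted p of 0.0203, and edgeR without the filter on low counts gave 0.26 with an adjusted p of 0.0469. Leaving out single libraries gave 0.24 to 0.34 with adjusted p values of 0.0554 to 0.226. Some summed markers also differed between these libraries without overlap. They were at 1557 to 1674 CPM in B6N and 1399 to 1532 CPM in knockouts for astrocytes, and 296 to 353 and 262 to 276 CPM for microglia. Genes typical of hippocampus were at 389 to 491 and 330 to 352 CPM. The ranges of the other marker sets overlapped. The part of cell types in the Impact values, also relative to RNA, was not tested. Relative to its RNA, the difference in Impact footprints was 0.24 ± 0.11 (0.00 to 0.48), with an edgeR p of 0.0473 and an adjusted p of 0.333.

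The other footprint values were less precise. Eif2ak4 read 21.2, 23.9 and 23.6 CPM in B6N and 27.5, 22.3 and 23.5 CPM in knockouts, which overlapped, at 0.10 ± 0.14 (-0.20 to 0.40). Ppp1r15b read 36.4, 37.8 and 40.7 CPM in B6N and 41.0, 42.8 and 44.1 CPM in knockouts, which did not overlap. Its log2 fold change was 0.15 ± 0.11 (-0.08 to 0.39). Its edgeR p was 0.182 and its adjusted p 0.44. Ppp1r15a had 7 to 32 footprints per library, at 1.59, 1.19 and 0.978 CPM in B6N and 1.84, 0.92 and 1.32 CPM in knockouts. Its log2 fold change of 0.18 ± 0.46 has a 95% interval of -0.82 to 1.17, too wide at this depth to tell a rise from a fall.

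**Figure D2:**
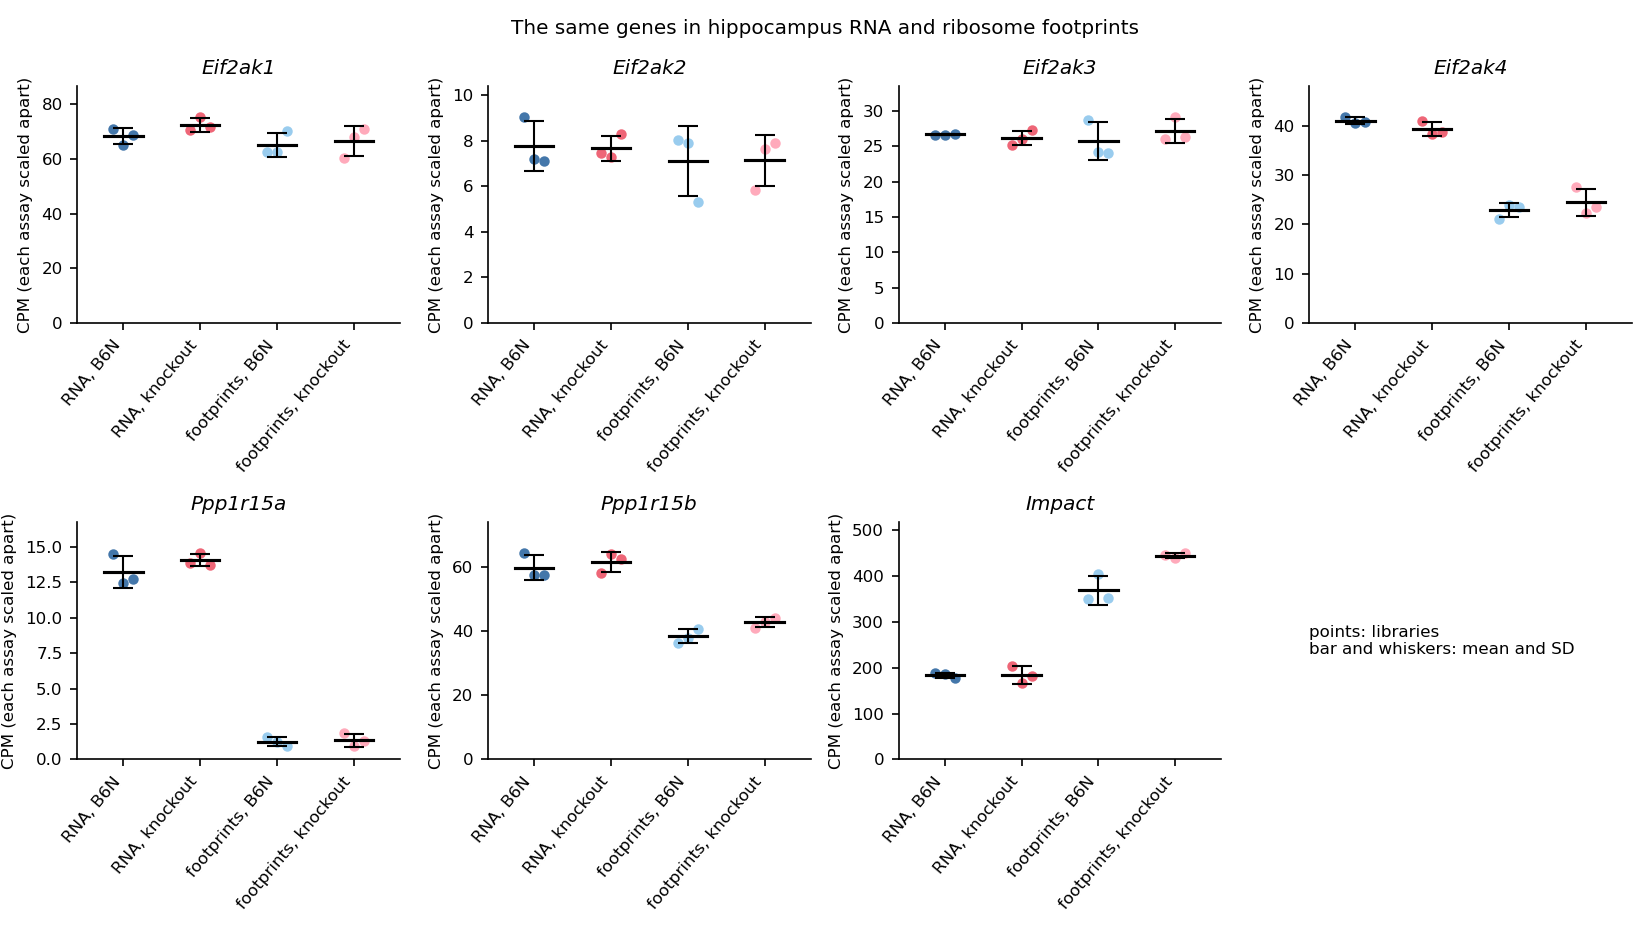
CPM of the 7 genes in hippocampus RNA and ribosome footprints, 1 panel per gene with a linear axis from 0, each assay scaled to its own totals. Points are libraries, bars and whiskers the mean and SD of 3 samples. Impact footprints are at 350.5 to 405.0 CPM in B6N and 440.3 to 449.9 CPM in knockouts, while Ppp1r15a footprints stay under 2 CPM in both.

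The genes differed far more from each other in footprints relative to RNA than any did between genotypes. In B6N hippocampus the ratio of footprint to RNA levels was 0.105 for Ppp1r15a (95% interval 0.0759 to 0.145), at percentile 4.38 of 15202 genes. For Atf4, whose upstream reading frames hold translation down in unstressed cells, it was 0.217, at percentile 8.19. The ratio was 0.618 for Eif2ak4, 0.713 for Ppp1r15b, 1.01 for Eif2ak2, 1.06 for Eif2ak1 and 1.07 for Eif2ak3. For Impact it was 2.23 (1.98 to 2.50), at percentile 88.3. In knockouts Ppp1r15a was at 0.113, Impact at 2.63 and Atf4 at 0.354. edgeR called none of these differences between genotypes (adjusted p 0.931, 0.333 and 0.0878), and DESeq2 called that of Atf4 (adjusted p 0.00525). The ratios carry no correction for the lengths of coding and non-coding parts, and the region counted is not given in the sources used here, so a long untranslated part lowers them. Summed markers also differed between the assays. In B6N, those of choroid plexus were at 108 to 2754 CPM in RNA and 6004 to 13197 CPM in footprints. Genes typical of hippocampus were at 827 to 934 CPM in RNA and 389 to 491 CPM in footprints. The part of this in the ratios was not tested.

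**Figure D3:**
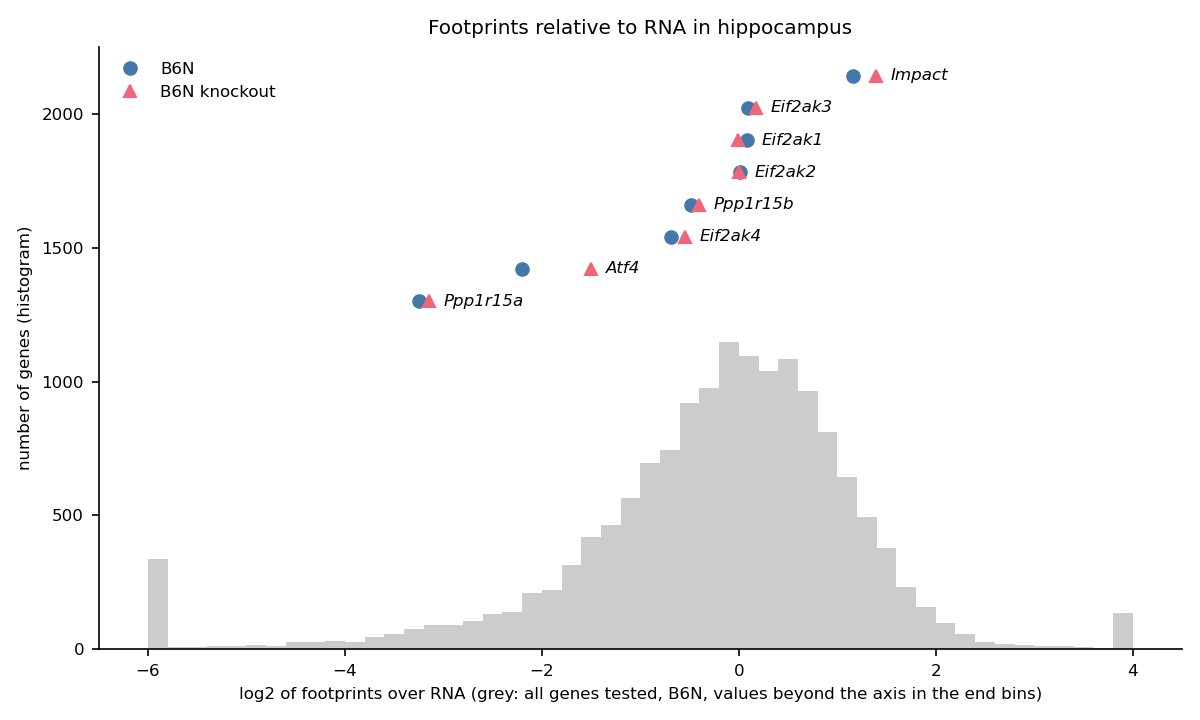
Log2 of footprint over RNA levels in hippocampus for the 7 genes and Atf4 (circles B6N, triangles B6N knockout, 1 height per gene), above a histogram of all 15202 genes tested in B6N with values beyond the axis placed in the end bins. Ppp1r15a lies at the far left (ratio 0.105 in B6N), left of Atf4 (0.217), and Impact at the right (2.23).

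Of the 4 eIF2 subunit genes, 2 rose in B6N knockout forebrain, where 1.11% of all genes rose. Eif2s1, which encodes the phosphorylated alpha subunit, went from 30.3 CPM ± 2.0 to 35.4 ± 2.3 (SD, n = 4 each), a log2 fold change of 0.22 ± 0.06 and an adjusted p of 0.049 by edgeR. Eif2s2, the beta subunit, went from 47.8 CPM ± 1.2 to 54.9 ± 2.4, at 0.20 ± 0.05 and an adjusted p of 0.0226. Both calls were close to the threshold. The call of Eif2s1 ended without B6N 1, 2 or 4 or knockout 1, 2 or 3 (adjusted p up to 0.238) or with correction for transcript length (0.138), and that of Eif2s2 without B6N 1, 2 or 4 or knockout 1, 2 or 4 (up to 0.0912) or with that correction (0.0632). Of the 3 catalytic subunits of protein phosphatase 1, which the Ppp1r15 proteins bind, Ppp1cc fell, where 0.807% of all genes fell, by 0.16 ± 0.04 on the log2 scale with an adjusted p of 0.0245. That call ended without any 1 of the 8 libraries but knockout 1 (up to 0.118). None of the 5 eIF2B genes, and none of the 12 regulators of the kinases in the files, was called in B6N knockout forebrain. Of all genes there, 1.91% were called. The regulators include Gcn1l1, the name of Gcn1 in the files, at 0.02 ± 0.04.

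ATF4 and its targets lie downstream, and their list was drawn up with results of these mice known, so its direction is not independent evidence. In B6N knockout forebrain 10 of 17 rose and none fell, where 1.11% of all genes rose and 0.807% fell. The median log2 fold change of the 17 was 0.57 against 0.00 over all genes. Atf4 rose by 0.71 ± 0.04, Chac1, which breaks down glutathione, 2.82-fold, and Asns, which makes asparagine, by 0.50 ± 0.05 (adjusted p of 3.3e-13, 3.86e-09 and 2.86e-08 by edgeR). Ddit3, a stress factor that can drive Ppp1r15a, was at 0.17 ± 0.07 with an adjusted p of 0.259. The files hold a second gene ID of that name, so estimated counts may be split between them, and the ID with more counts was used.

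**Figure D4:**
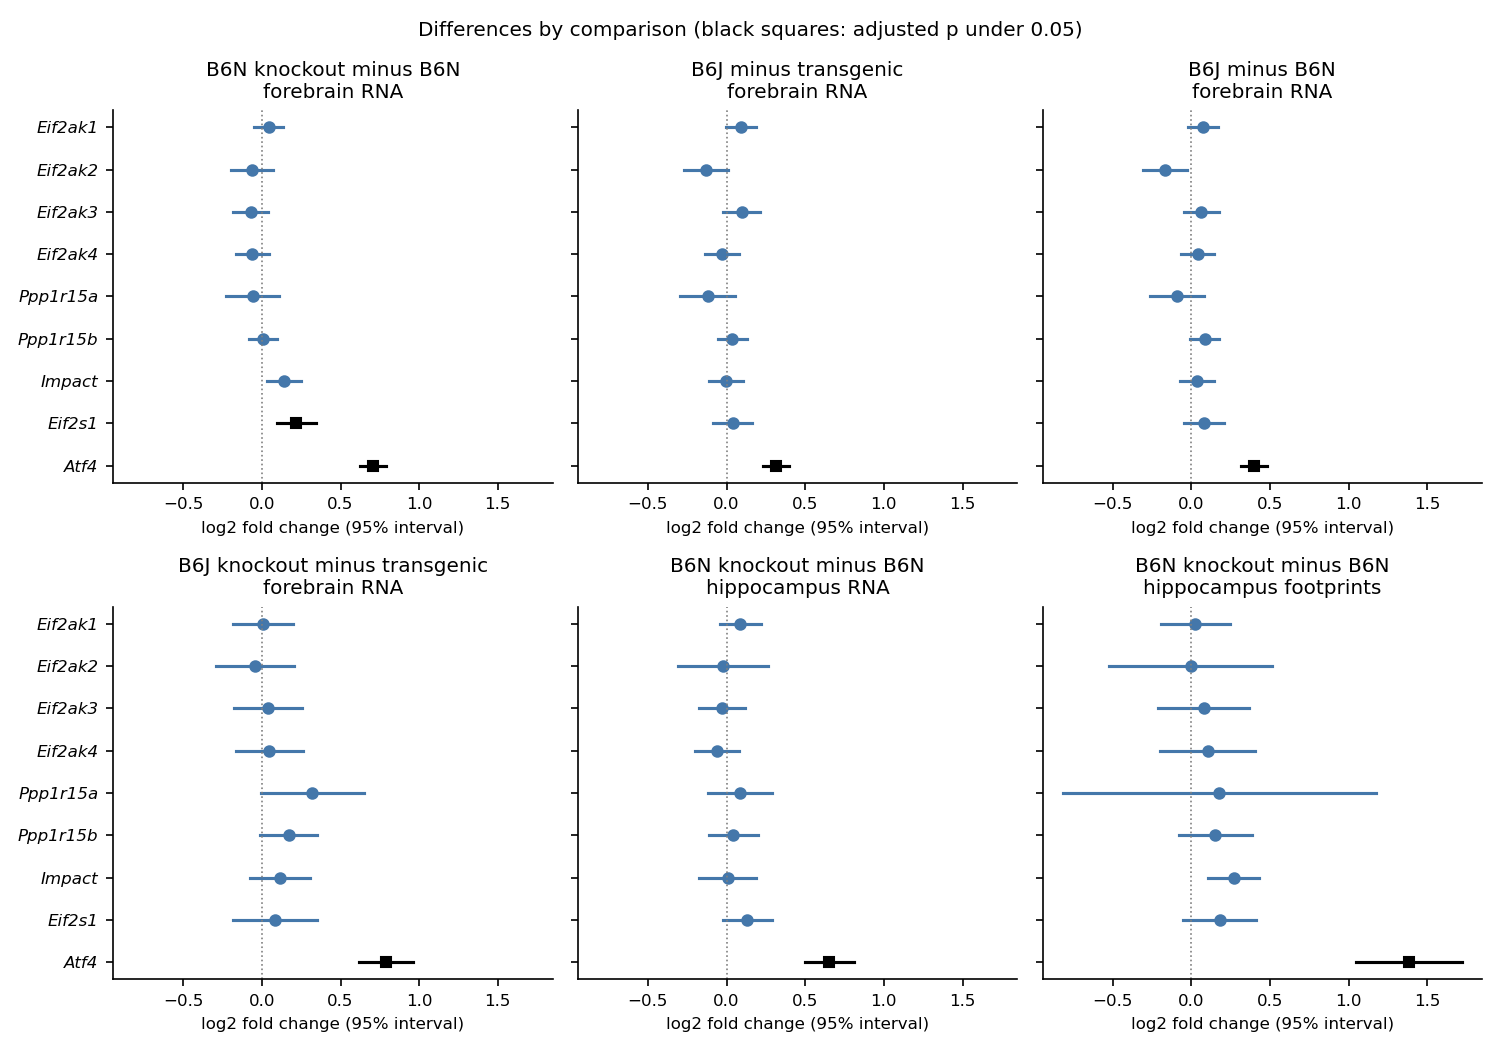
Log2 fold changes with 95% intervals of the 7 genes, Eif2s1 and Atf4 in 6 comparisons, on 1 linear axis with 0 dotted. Black squares passed an adjusted p of 0.05 in edgeR: Atf4 in all 6 and Eif2s1 in B6N knockout forebrain, against none of the 7 genes.

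In B6J transgenic against B6N none of the 17 genes of the ATF4 branch was called, with a median of -0.04. None was called for translational efficiency either. Of all genes, 0.366% and 0% were called in these 2 comparisons. Members of the branch were called in the comparisons that follow. In B6J against B6J transgenic 3 of 17 rose, where 0.171% of all genes rose, among them Atf4 by 0.32 ± 0.04. Leaving out single libraries left 1 or 2 of these 3 calls, and fitting only these groups left 1. In B6J against B6N 4 rose and 1 fell (1.21% and 0.513% of all genes). Of these 5 calls, 1 was left with correction for transcript length, and 2 to 5 with single libraries left out, fewest without B6N 3. The fall was Slc7a11, the cystine transporter, at -0.25 ± 0.05, a call that ended without B6N 3 (adjusted p 0.0549) or with correction for transcript length (0.22). In the B6N knockout effect minus the B6J effect, Atf4 (0.39 ± 0.06) and Chac1 (1.01 ± 0.19) were called as higher, with 1 or 2 of them left without single libraries. In B6J knockout against B6J transgenic 6 rose (0.528% of all genes), Atf4 by 0.79 ± 0.08, and 2 of the 6 were left with correction for transcript length. DESeq2 called 2 and gave the other 4 no adjusted p. In B6J knockout against B6J Atf4 alone rose (0.0792% of all genes), by 0.47 ± 0.09 with an adjusted p of 0.0321 by edgeR, a call that ended without B6J 2 or 4 or knockout 4 (up to 0.0655), without the filter on low counts (0.0667) or with correction for transcript length (0.18). In hippocampus RNA 4 rose (0.031% of all genes), Atf4 by 0.65 ± 0.07, and leaving out single libraries left 0 to 4 of them, with 0 left without B6N 3 or without knockout 3. In footprints 7 of 16 rose (2.19% of all genes), Atf4 by 1.38 ± 0.16, and leaving out single libraries left 2 to 6, fewest without B6N 3. In footprints Rplp1, a protein of the ribosomal stalk that GCN2 contacts, fell (3.16% of all genes fell), by 1.21 ± 0.24 on the log2 scale with an adjusted p of 0.0309. That call ended without B6N 2 or 3 or knockout 1 or 2 (up to 0.123) or without the filter on low counts (0.0693). None of 8 immediate-early genes, a class to which Ppp1r15a also belongs, was called other than Ier2, which fell in B6J against B6N by 0.73 ± 0.17. That call ended without B6N 2, 3 or 4 or B6J 3 or 4 (adjusted p up to 0.0865) or with correction for transcript length (0.0546). The median log2 fold change of the 8 genes ran from -0.79 in B6J knockout against B6J transgenic (0.01 over all genes) to 0.66 in footprints (0.00 over all genes). It was -0.65 in B6J against B6N, -0.36 in B6N knockout forebrain and 0.03 in hippocampus RNA.

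Most of the 7 genes were read from 1 main transcript in forebrain. Averaged over 21 libraries, the main transcript held 99.04% of the estimated counts of Eif2ak2, 95.5% for Eif2ak1, 90.8% for Ppp1r15a, 88.8% for Ppp1r15b and 87.3% for Impact. For Eif2ak3 it held 82.9%, with 14.1% on a transcript annotated as a retained intron. Eif2ak4 was the exception, with 5 transcripts of at least 5%, led by 1 with 46.7% and 1 with 16.5%. These are shares of counts, to which long transcripts give more. In the deposited TPM the same transcript held 50.4% of Impact and 62.4% of Eif2ak3. The batch 2 library of transgenic mouse 4 put 25.8% of Ppp1r15b on its shorter, non-coding transcript, the highest share of the 21 libraries. Libraries depleted of ribosomal RNA keep unspliced RNA, so the share on retained introns is not that of mature message alone.

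Over the 16 forebrain libraries of batch 1, the gene whose log2 CPM followed each of the 7 most closely, of 20336 genes, was Ssr3 for Impact (Pearson r = 0.91, Spearman rho = 0.91), Pcsk1n for Eif2ak4 (0.91 and 0.82), Kcnh1 for Eif2ak1 (0.88 and 0.69) and Luc7l2 for Eif2ak2 (0.87 and 0.81). For Ppp1r15b it was Tacr1 (0.84 and 0.85), for Ppp1r15a Gm44044 (0.84 and 0.78) and for Eif2ak3 Elavl3 (0.80 and 0.80). The second were Cct8, Dlg5, Celf5, Vmn2r79, Gm10471, Gm35240 and Il12rb2 in the same order of genes. These are the highest of 20336 values over libraries that share batch and preparation, and are given as a description.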

How the data were processed

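Forebrain RNA (21 libraries) was deposited by the authors as estimated counts, effective lengths and TPM per transcript, in the layout of kallisto per the file headers. Hippocampus RNA and footprints (12 libraries) were deposited as counts per gene, not normalized. Tools listed in the submitters' processing notes, with no role, are featureCounts, Bowtie2 2.2.3, HISAT2 2.1.0 and kallisto 0.42.4, and the build is mm10. Per the labels' protocols, forebrain libraries mark the strand and the kit named for hippocampus RNA was TruSeq v2.

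Estimated counts were summed per gene and rounded. Tests used edgeR 4.0.16 with TMM scaling, a filterByExpr minimum of 10 counts and the robust, two-sided quasi-likelihood F test. Benjamini-Hochberg adjustment covered every gene in a comparison, and an adjusted p under 0.05 made a call, the only case in which rose or fell is written. The 16 batch 1 forebrain libraries shared 1 fit. B6J knockouts were tested in all 21, with a separate term for transgenic mouse 4. Each hippocampus assay had its own fit, and translational efficiency was tested as an interaction term over both. CPM use scaled library sizes, and errors are SE for fold changes and SD for levels. Hippocampus TPM were computed from counts over annotated transcript lengths, averaged per gene by transcript abundance in forebrain. The deposited TPM served only as a check. Samples of a group were taken as separate animals, which the labels do not state for hippocampus, and p-values measure the spread between these samples. No 2 libraries of a group were as close as counting error (lowest chi-square over degrees of freedom 2.92 in 42 pairs). The known repeat library, of transgenic mouse 4, was not among these pairs, so they cannot tell separate animals from repeats of an animal. The fits were tested on simulated data. Members, lists and tests were chosen with earlier results of these data known. All 7 members were named in every comparison, and of each list its counts, the called genes of most weight, Atf4, Ddit3, Gcn1 and Eif2s1. Alternatives were DESeq2 1.42.0, other scaling, filter, length and batch terms, a replicate block and leaving out libraries. Codon content, protein sequences and upstream reading frames were not analysed here.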

Additional observations from a re-analysis of the deposited data

Results flagged for a closer look

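One library stood apart from its group in 1 of 35 groups of 4 forebrain libraries tested, 7 genes in 5 groups, by Dixon's test at 95%, which chance alone meets in about 1 of 20 groups. It was Eif2ak3, the kinase of the endoplasmic reticulum, in B6J mouse 3, at 30.6 CPM where the other 3 B6J mice read 28.0 to 28.3 CPM. The gap to the nearest of the others was 0.907 of the whole range.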

How the results depend on the processing

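With a correction for transcript length, the number of genes called was 174 for B6N knockout against B6N, 6 for B6J against transgenic, 143 for B6J against B6N, 55 for transgenic against B6N, 7 for the difference of effects, 66 for B6J knockout against transgenic and 12 for B6J knockout against B6J. With a correction for transcript length, log2 fold changes that changed sign were for B6N knockout against B6N Eif2ak4 0.0096; for B6J against transgenic Eif2ak3 -0.050 and Eif2s1 -0.00068; for B6J against B6N Eif2ak3 -0.17; for transgenic against B6N Eif2ak1 0.0050 and Ppp1r15a -0.0076; for the difference of effects Eif2ak4 0.039 and Ppp1r15b 0.0076; for B6J knockout against transgenic Eif2ak4 -0.059, Ppp1r15a -0.16, Eif2s1 -0.079 and Gcn1l1 -0.090; for B6J knockout against B6J Eif2ak3 0.13, Eif2ak4 -0.030, Ppp1r15a -0.019, Eif2s1 -0.079 and Gcn1l1 -0.24. With DESeq2, the number of genes called was 157 for B6J against transgenic, 50 for the difference of effects, 461 for B6J knockout against transgenic, 137 for B6J knockout against B6J, 138 for hippocampus RNA, 1080 for footprints and 494 for translational efficiency. With DESeq2, 1 of the 7 genes was called for footprints. With no filter on low counts, the number of genes called was 106 for B6J against transgenic, 46 for the difference of effects, 135 for hippocampus RNA and 38 for translational efficiency. With no filter on low counts, 1 of the 7 genes was called for footprints. With no filter on low counts, log2 fold changes that changed sign were for B6J knockout against transgenic Eif2ak1 -0.027. With only the groups compared in the fit, the number of genes called was 990 for B6J against B6N. With only the groups compared in the fit, 1 of the 7 genes was called for B6N knockout against B6N. With batch as a plain term, the number of genes called was 1800 for B6J knockout against transgenic and 297 for B6J knockout against B6J. With batch as a plain term, 1 of the 7 genes was called for B6J knockout against transgenic. With batch as a plain term, log2 fold changes that changed sign were for B6J knockout against B6J Eif2ak2 -0.10 and Eif2ak3 0.034. With batch 2 alone, the number of genes called was 742 for B6J knockout against transgenic. With B6J knockout 4, the male, alone (chosen after seeing the data), the number of genes called was 96 for B6J knockout against transgenic and 10 for B6J knockout against B6J. With B6J knockout 4, the male, alone (chosen after seeing the data), log2 fold changes that changed sign were for B6J knockout against transgenic Eif2ak1 -0.13, Eif2ak2 0.00057 and Eif2s1 -0.00066; for B6J knockout against B6J Eif2s1 -0.038. With the replicate number as a block, the number of genes called was 7 for translational efficiency. With the replicate number as a block, log2 fold changes that changed sign were for footprints Eif2ak2 0.0031.

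Groups share replicate numbers in the labels. Between groups of an assay, deviations of same-numbered libraries correlated at -0.18 to 0.16 in forebrain, -0.41 to 0.13 in hippocampus RNA and -0.02 to 0.08 in footprints. Libraries of other numbers correlated at -0.22 to 0.27, -0.48 to 0.50 and -0.13 to 0.09. Each hippocampus assay has 3 same-numbered pairs, too few to decide. Whether RNA and footprint libraries of the same number belong together was not checked by correlation. For knockout 1, Y-linked Ddx3y was at 0.336 CPM in RNA and 45.5 CPM in footprints, so that pairing is in doubt. The replicate block for translational efficiency joins RNA and footprint libraries by number all the same. With the replicate block, genes called were 513 for B6N knockout against B6N, 63 for B6J against transgenic, 501 for B6J against B6N, 97 for transgenic against B6N, 15 for the difference of effects, 207 for B6J knockout against transgenic, 31 for B6J knockout against B6J, 6 for hippocampus RNA, 630 for footprints and 7 for translational efficiency.

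Leaving out single libraries, genes called ranged from 262 to 751 for B6N knockout against B6N, from 16 to 196 for B6J against transgenic, from 216 to 426 for B6J against B6N, from 53 to 176 for transgenic against B6N, from 3 to 78 for the difference of effects, from 133 to 388 for B6J knockout against transgenic, from 10 to 32 for B6J knockout against B6J, from 0 to 10 for hippocampus RNA, from 32 to 916 for footprints and from 0 to 301 for translational efficiency. Log2 fold changes that changed sign ranged as follows: for B6N knockout against B6N, Ppp1r15b from -0.013 to 0.030 and Gcn1l1 from -0.00079 to 0.031. For B6J against transgenic, Impact from -0.053 to 0.056, Eif2s1 from -0.017 to 0.090 and Ddit3 from -0.044 to 0.040. For B6J against B6N, Ddit3 from -0.020 to 0.065. For transgenic against B6N, Eif2ak1 from -0.045 to 0.012, Eif2ak2 from -0.10 to 0.013, Ppp1r15a from -0.030 to 0.073, Impact from -0.021 to 0.089, Gcn1l1 from -0.081 to 0.017 and Ddit3 from -0.015 to 0.058. For the difference of effects, Eif2ak4 from -0.061 to 0.0058. For B6J knockout against transgenic, Eif2ak1 from -0.023 to 0.041. For B6J knockout against B6J, Eif2s1 from -0.023 to 0.099. For hippocampus RNA, Eif2ak2 from -0.083 to 0.10, Impact from -0.076 to 0.079 and Gcn1l1 from -0.036 to 0.033. For footprints, Eif2ak1 from -0.025 to 0.093, Eif2ak2 from -0.18 to 0.14, Ppp1r15a from -0.15 to 0.38, Gcn1l1 from -0.010 to 0.098 and Ddit3 from -0.24 to 0.091. For translational efficiency, Eif2ak2 from -0.20 to 0.13, Ppp1r15a from -0.26 to 0.29, Eif2s1 from -0.047 to 0.070 and Gcn1l1 from -0.041 to 0.077. In deposited TPM in place of counts, the main transcript held 86.3% of Eif2ak1, 92.7% of Eif2ak2, 62.4% of Eif2ak3, 38.6% of Eif2ak4, 82.8% of Ppp1r15b and 50.4% of Impact. Transgenic mouse 4 could not be left out of the fit with B6J knockouts, since it alone joins the batches. Of 392 values of the 7 genes under other settings, 18 changed sign and 4 became calls; of 609 with a library left out, 34 changed sign and none became a call. With batch 2 alone and with knockout 4 alone, 1 group is a single library that is assumed to vary like the other groups. The cause of these shifts was not tested. Depth limits Ppp1r15a footprints most, at 7 to 32 counts per library.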
